A study of Mus musculus with 8 samples.

Results

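The genes of branched-chain amino acid uptake and breakdown were followed across the chromatin accessibility map of mouse gastrocnemius muscle with and without an induced knockout of the clock gene Bmal1. The 10 genes were Slc7a5, Slc3a2, Bcat1, Bcat2, Bckdha, Bckdhb, Dbt, Bckdk, Ppm1k and Hibadh. Every accessible region that the deposited table assigns to one of these gene names was taken, which gave 144 of 489637 regions. The table covers 27552 genes in all.

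Leucine, isoleucine and valine are essential amino acids, and skeletal muscle is a main site where their nitrogen is removed. The heterodimer of the light chain encoded by Slc7a5 and the heavy chain encoded by Slc3a2 carries large neutral amino acids across the plasma membrane. Bcat1 in the cytosol and Bcat2 in mitochondria transfer the amino group to 2-oxoglutarate. The resulting keto acids are then decarboxylated by the mitochondrial branched-chain keto acid dehydrogenase, of which Bckdha and Bckdhb encode the E1 subunits and Dbt the E2 core. The kinase encoded by Bckdk phosphorylates and inhibits this complex, and the phosphatase encoded by Ppm1k restores its activity. Hibadh encodes 3-hydroxyisobutyrate dehydrogenase, an enzyme of the valine arm.

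ATAC-seq reads open chromatin by inserting adapters with a transposase. There were 4 vehicle libraries and 4 iMSBmal1KO libraries, the latter from mice given tamoxifen. All 8 samples carried the genotype Cre+:iMSBmal1 fl/fl, were 6 months of age, and gave 2 whole gastrocnemius muscles per sample. The labels used here do not name the promoter that drives Cre or the hour of collection. Tamoxifen and loss of Bmal1 cannot be told apart in this design, since the vehicle mice received no tamoxifen. Nuclei came from whole muscle, so fewer cells of a type and less open chromatin per cell cannot be told apart. Whether libraries with the same label came from separate animals is not stated, and p-values measure the spread between these libraries.

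Library totals were between 4.31 M and 29.5 M read equivalents (M, the prefix mega), with vehicle replicate 4 the shallowest. That library had 24.9% of all regions at 0 and 16.5% of its signal on the mitochondrial chromosome, against 1.11 to 5.51% in the others, and its correlations with the other libraries were between 0.80 and 0.85. Values are reads divided by a constant for each library, called signal below, or scaled reads, and dividing them by the library's value of 1 read gives read equivalents. Of all tested regions, 110 of 124901 (0.0881%) differed between the groups at an adjusted p under 0.05 in limma with Benjamini-Hochberg adjustment. Across every tested region the log2 change, knockout against vehicle, had a median of 0.12. This median moved to about 0.01 when the libraries were rescaled, and to 0.037 without vehicle replicate 4. Member changes are therefore read against the median of all tested regions. Start regions of 7 fast-fibre genes with a start region, out of 8 listed, summed to between 7442 and 12128 in vehicle and between 8585 and 11053 in knockout. Most of this came from Tnnt3, Tnni2, Ckm and Acta1. The fast myosin genes Myh4, Myh1 and Myh2 had means over 8 libraries of only 32.4, 59.9 and 9.61. Fibro-adipogenic genes summed to between 353 and 597 in vehicle and between 413 and 615 in knockout. Of 4 listed leukocyte genes, the 2 with a start region summed to between 3.13 and 12.5 in all 8 libraries.

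The promoter windows that the data touch are shown first. RefSeq (GRCm38.p6) gave 11 windows for 8 of the 10 genes, each from 250 bases before to 50 bases after a transcript start. The 6 windows below are those over which the table has an accessible region. They are written on the strand of the gene, with matches to the searched motifs in capitals. The motifs, searched on both strands, were the E-box CACGTG bound by Bmal1 with Clock, the variant CACGTT, the core TAGGTCA of ROR and REV-ERB sites, the amino acid response core TGATGNAA, and the GC box GGGCGG.
Slc3a2, chr19:8713848-8714147, minus strand: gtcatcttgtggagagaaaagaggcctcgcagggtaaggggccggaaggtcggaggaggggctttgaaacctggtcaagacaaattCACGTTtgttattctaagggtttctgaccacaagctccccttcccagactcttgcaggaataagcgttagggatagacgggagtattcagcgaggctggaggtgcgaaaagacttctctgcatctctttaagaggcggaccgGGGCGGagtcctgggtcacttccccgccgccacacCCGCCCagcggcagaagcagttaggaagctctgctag
Bckdha, chr7:25658712-25659011, minus strand: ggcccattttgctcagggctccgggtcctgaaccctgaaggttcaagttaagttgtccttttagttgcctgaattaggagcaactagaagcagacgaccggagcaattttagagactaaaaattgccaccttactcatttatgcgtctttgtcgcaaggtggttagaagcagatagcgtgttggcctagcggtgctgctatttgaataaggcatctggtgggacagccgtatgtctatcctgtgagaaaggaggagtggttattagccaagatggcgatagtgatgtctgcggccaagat
Bckdhb, chr9:83924887-83925186, plus strand: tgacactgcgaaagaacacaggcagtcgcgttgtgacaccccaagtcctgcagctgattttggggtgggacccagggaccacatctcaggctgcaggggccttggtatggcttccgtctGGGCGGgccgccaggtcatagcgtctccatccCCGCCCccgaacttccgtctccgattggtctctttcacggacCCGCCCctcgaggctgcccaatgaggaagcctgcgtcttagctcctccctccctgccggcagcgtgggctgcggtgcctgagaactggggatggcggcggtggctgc
Bckdk, chr7:127903823-127904122, plus strand: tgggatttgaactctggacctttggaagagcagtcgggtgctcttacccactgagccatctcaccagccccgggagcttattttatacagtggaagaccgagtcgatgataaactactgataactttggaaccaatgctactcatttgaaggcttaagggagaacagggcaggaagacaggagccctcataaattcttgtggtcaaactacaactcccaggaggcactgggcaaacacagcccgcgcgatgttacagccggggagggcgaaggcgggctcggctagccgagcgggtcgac
Ppm1k, chr6:57535438-57535737, minus strand: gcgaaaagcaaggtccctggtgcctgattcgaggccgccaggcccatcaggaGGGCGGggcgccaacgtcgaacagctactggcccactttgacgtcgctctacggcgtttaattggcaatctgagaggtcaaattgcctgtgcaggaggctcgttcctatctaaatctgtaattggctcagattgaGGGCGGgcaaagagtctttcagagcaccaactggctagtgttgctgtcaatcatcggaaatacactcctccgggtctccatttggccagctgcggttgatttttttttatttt
Hibadh, chr6:52640251-52640550, minus strand: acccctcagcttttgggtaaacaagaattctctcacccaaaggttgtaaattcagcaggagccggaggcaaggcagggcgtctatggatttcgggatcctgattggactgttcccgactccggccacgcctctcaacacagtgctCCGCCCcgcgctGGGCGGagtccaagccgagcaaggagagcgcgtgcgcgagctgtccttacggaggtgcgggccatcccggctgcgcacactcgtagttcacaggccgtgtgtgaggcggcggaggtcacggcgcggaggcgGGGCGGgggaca

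No window of the 8 genes held the E-box CACGTG, which was present in 7.15% of 32851 promoters of this length. The core TAGGTCA (2.61% of promoters) and the amino acid response core (3.97%) were likewise in none of the 11 windows. The variant CACGTT was in 1 window each of Bcat1, Bcat2 and Slc3a2, against 4.68% of promoters. GC boxes were in 4 of the 11 windows, against 35.7% of promoters, with 3 matches in Bckdhb, 3 in Hibadh, 2 in Ppm1k and 2 in Slc3a2. The windows of Bckdk and Bckdha held none of the 5 motifs. These are matches of letters in these windows only.

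The accessible part of each window differed. The Hibadh start region covered all 300 bases, the strongest Ppm1k region 252 and the strongest Bckdhb region 159. The Bckdk region covered only the last 72 bases of its window, and the strongest Slc3a2 region the last 81. Weaker Slc3a2 regions covered another 59 and 124 bases of the Slc3a2 window. The Bckdha window lay under a region that the table assigns to Exosc5, whose start faces the Bckdha start, and that region covered 266 of its bases.

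Start regions differed widely in their level. Per kb of region, the mean over 8 libraries was 1572 for Hibadh, at percentile 98.6 of all genes with a start region, then 816 for Ppm1k and 595 for Dbt. Slc3a2 (465 per kb), Bckdhb (438 per kb) and Slc7a5 (387 per kb) followed. Bcat2 (298 per kb) and Bckdk (278 per kb) were lower, and Bckdha stood last at 106 per kb. The Bckdha value came from 1 region of 82 bp, too weak to test singly. The region over the Bckdha start is assigned to Exosc5, with a mean signal of 684 over 541 bp, and is not counted in this order. The ranges over the 8 libraries did not overlap between Hibadh and Ppm1k, nor between Bckdk and Bckdha, while every other pair of neighbours in this order overlapped. Bcat1 had no region at a start.

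**Figure D1:**
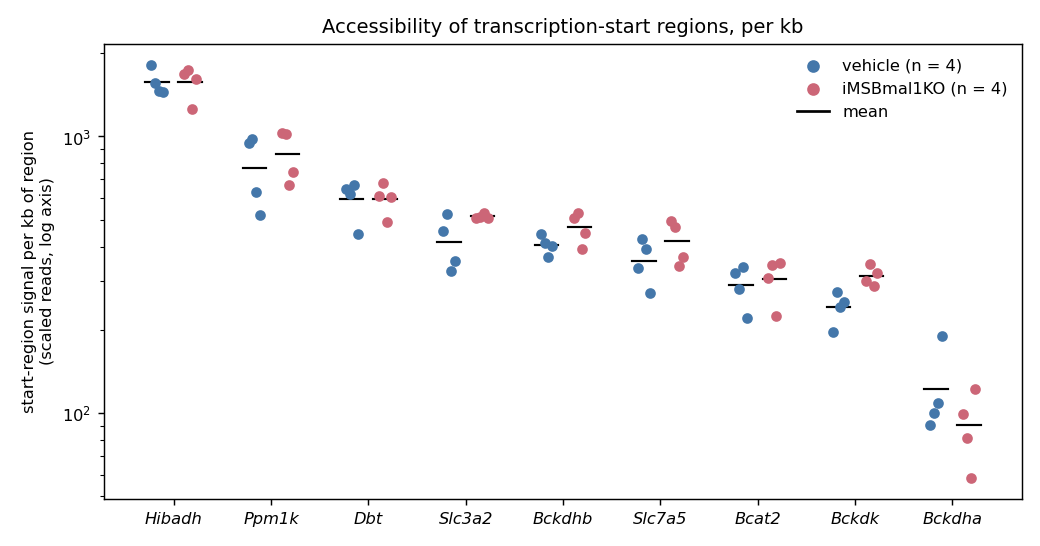
Start-region signal per kb of region (scaled reads, log axis) for the 9 member genes with a start region, ordered by mean; points are libraries (4 vehicle, 4 iMSBmal1KO) and lines are group means. Hibadh stands above all others in every library, and both Bckdk groups are separate, between 197 and 275 per kb in vehicle and between 288 and 347 per kb in knockout. The Bckdha points come from 1 region of 82 bp and leave out the region over its start that is assigned to Exosc5.

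The place of the signal within the gene also differed. Slc3a2 had 99.2% of its summed signal at starts, Ppm1k 92.5% and Dbt 81.6%. Slc7a5, in contrast, had 84.0% in introns, and a single intronic region held 62.2% of the gene. Bcat2 had 81.8% at a transcript end, and Bckdk had 57.9% in 3' UTR exons. Bckdha had 93.2% in introns, with the region over its start assigned to Exosc5.

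**Figure D2:**
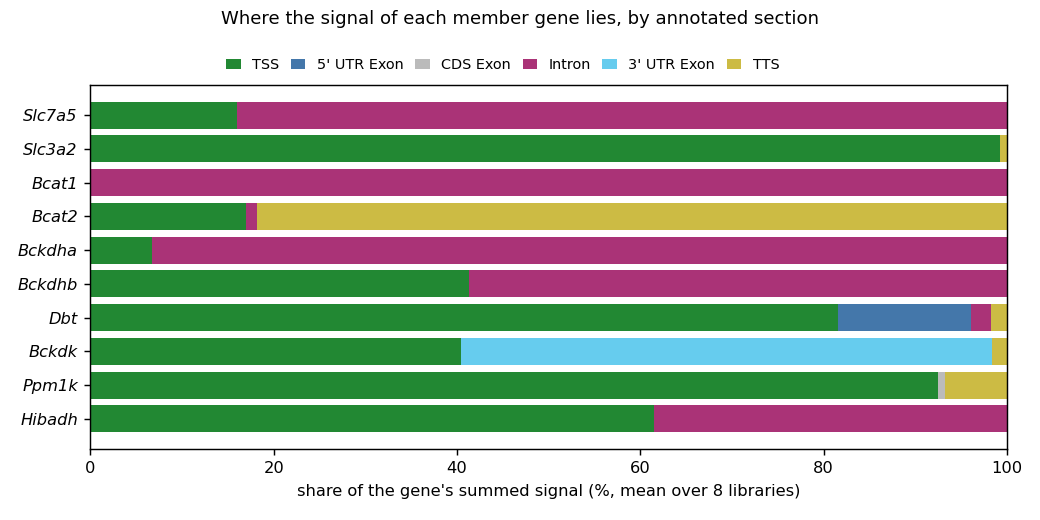
Share of each member gene's summed signal (%, mean over 8 libraries) by the section the table annotates: transcription start (TSS), 5' UTR exon, coding exon, intron, 3' UTR exon and transcript end (TTS). Slc3a2, Ppm1k, Dbt and Hibadh have more than 60% at starts; Slc7a5, Bcat1 and Bckdha have more than 80% in introns.

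Both uptake genes had separate or nearly separate groups, and neither passed the test. Summed over its 11 regions, Slc7a5 had a signal of 1682, 1490, 1619 and 1395 in vehicle and 1157, 1375, 1323 and 1384 in knockout. Every knockout library lay below every vehicle library. The means were 1546 ± 129 and 1310 ± 105 (SD, n = 4), a log2 change of -0.24 ± 0.14 (SE), with adjusted p = 0.563 in limma. Slc7a5 was the only 1 of 10 member genes whose groups did not overlap, against 4.94% of all tested genes.

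The lower Slc7a5 sum was carried by the strongest region of the gene, chr8:121889959-121890797, 838 bp in intron 2 of the transcript Slc7a5-203. It lay 17.4 kb downstream of the strongest start region. Its signal was 1153, 935, 1058 and 963 in vehicle and 547, 760, 830 and 857 in knockout, so the groups were separate. The log2 change was -0.47 ± 0.18 (SE, adjusted p = 0.490 in limma), or -0.60 relative to the median of all tested regions. It was -0.33 without knockout replicate 1, the deepest library, which gave the lowest value. With median-of-ratios, TMM and loess scaling it was -0.59, -0.59 and -0.58, with adjusted p of 0.172, 0.158 and 0.115 in limma. Each library had between 308 and 1665 read equivalents there.

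Other Slc7a5 regions did not go the same way. A region in intron 1, chr8:121901924-121902238, 5.74 kb from the start region, had 91.2 ± 5.30 in vehicle and 112 ± 12.2 in knockout, with every knockout library above every vehicle library (log2 change 0.29, adjusted p = 0.655 in limma). The region at the start, chr8:121907671-121907967, had 187 ± 38.7 and 222 ± 41.2, and its groups overlapped. A second region in intron 1, chr8:121898418-121898862, had 177 ± 16.8 and 170 ± 14.3. Relative to the start region of the same library, the intron 2 region stood at a log2 ratio of 2.71, 2.01, 2.40 and 2.77 in vehicle and 1.05, 1.61, 2.19 and 2.17 in knockout. These ratios overlapped, through vehicle replicate 2.

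**Figure D3:**
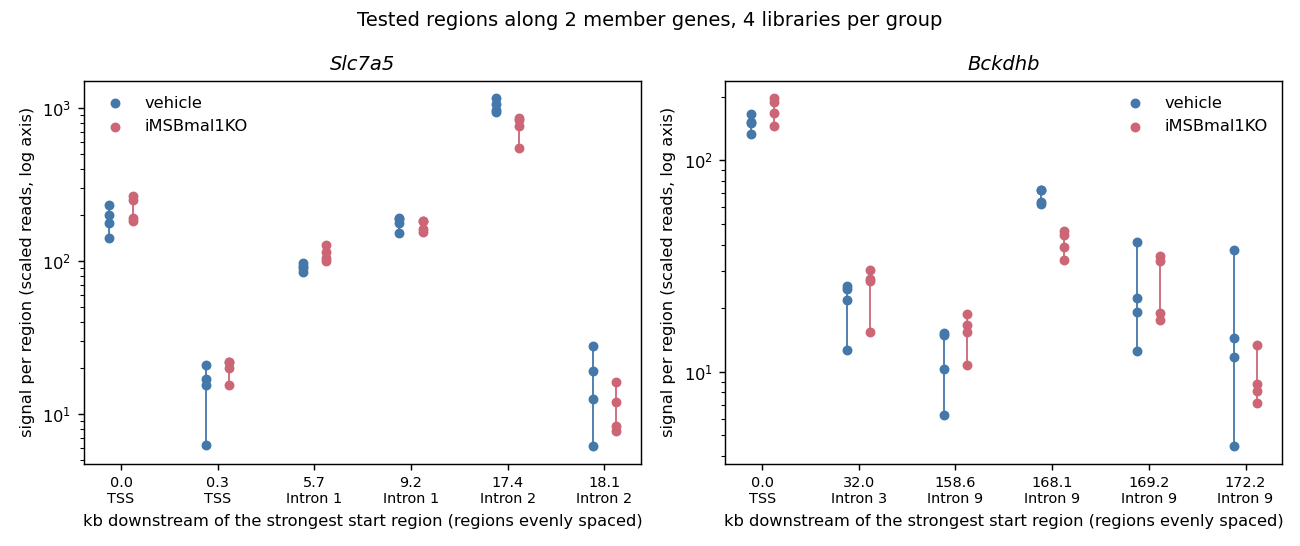
Signal (scaled reads, log axis) of each tested region of Slc7a5 and Bckdhb in 4 vehicle and 4 iMSBmal1KO libraries, ordered by distance in kb from the strongest start region; vertical lines span the libraries of a group. The groups are separate at 17.4 kb and 5.7 kb in Slc7a5 and at 168.1 kb in Bckdhb.

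Slc3a2, the heavy chain, had a more even level in the knockout libraries. Its summed signal was 449, 520, 323 and 350 in vehicle and 503, 505, 519 and 504 in knockout. Vehicle replicate 2 exceeded all knockout libraries, so the groups overlapped, and the other vehicle libraries were below them. The log2 change was 0.33 ± 0.17 (SE), with adjusted p = 0.532 in limma. Most of this, 89.6%, was the region at an internal start, chr19:8713344-8713929, with 367 ± 82.4 in vehicle and 456 ± 7.26 in knockout. The upstream end of the RefSeq gene, at 8723369 on the minus strand, lies inside a region assigned to Snhg1 (chr19:8723009-8723617), which had 489 ± 107 and 602 ± 121 (log2 change 0.31, adjusted p = 0.629 in limma). Between the start sums of Slc7a5 and Slc3a2, the log2 ratio was -0.95 ± 0.32 in vehicle and -1.05 ± 0.28 in knockout, a difference within the spread of either group.

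Transamination genes were close to equal in both groups. Bcat1, the cytosolic enzyme, had only 4 regions, all intronic and too weak to test singly, which summed to 21.8 ± 5.91 in vehicle and 19.1 ± 5.72 in knockout (log2 change -0.19, adjusted p = 0.843 in limma). Bcat2, the mitochondrial enzyme, summed to 823, 813, 712 and 616 in vehicle and 802, 846, 623 and 721 in knockout. The 2 sets interleave, and the log2 change was 0.01 ± 0.16 (SE, adjusted p = 0.981 in limma). Its strongest region was at a transcript end, chr7:45589185-45589625, with 564 ± 83.4 and 572 ± 85.7. The strongest region at a Bcat2 start, chr7:45570257-45570367, was weaker, with 87.8 ± 26.0 and 102 ± 16.1. A stronger region just outside the gene, chr7:45568087-45568611, is assigned to 0610005C13Rik. It had 978 ± 162 in vehicle and 825 ± 86.1 in knockout, and its groups overlapped (log2 change -0.24, adjusted p = 0.665 in limma). Neither RefSeq window of Bcat2 was touched by an accessible region.

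The dehydrogenase subunits had level sums as well. Bckdha, E1 alpha, summed to 134 ± 9.04 in vehicle and 125 ± 22.9 in knockout (log2 change -0.12, adjusted p = 0.825 in limma). The region over its start that is assigned to Exosc5, chr7:25658746-25659287, had 807, 760, 598 and 372 in vehicle and 682, 888, 663 and 702 in knockout. The vehicle libraries spanned the knockout libraries here except for knockout replicate 2, and the log2 change was 0.26 ± 0.22 (SE, adjusted p = 0.697 in limma), or 0.026 without vehicle replicate 4. Dbt, the E2 core, summed to 330 ± 53.5 and 327 ± 44.1 (log2 change -0.01, adjusted p = 0.990 in limma). Its main start region, chr3:116512989-116513310, had 253 ± 42.6 and 258 ± 33.8.

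Bckdhb, E1 beta, summed to 390 ± 40.6 in vehicle and 401 ± 65.1 in knockout (log2 change 0.03, adjusted p = 0.961 in limma). Its start region, chr9:83925028-83925344, had 151 ± 13.2 and 175 ± 23.1, and the groups overlapped. The member region with the smallest p of all lay far from that start, 168.1 kb downstream in intron 9 of the transcript Bckdhb-206, at chr9:84093210-84093374. Its signal was 72.5, 63.7, 72.4 and 62.5 in vehicle and 39.0, 44.3, 46.5 and 33.9 in knockout. All knockout libraries were lower, with a log2 change of -0.72 ± 0.24 (SE), and the adjusted p was 0.430 in limma. Relative to the median of all tested regions the change was -0.84. Over the alternatives it ran from -0.89 to -0.64, with adjusted p between 0.120 and 0.804 in limma. Between 20 and 114 read equivalents per library lay behind these values. The next tested regions downstream in that intron had overlapping groups, with 23.8 ± 12.3 and 26.4 ± 9.35 at chr9:84094350-84094482 and 4.45 to 37.5 in vehicle and 7.16 to 13.4 in knockout at chr9:84097278-84097438.

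Of the regulators of the complex, the kinase gene had separate groups at its start and the phosphatase gene did not, and neither passed the test. For the kinase Bckdk, start regions summed to 83.1, 116, 102 and 106 in vehicle and 127, 146, 122 and 135 in knockout. Every knockout library was above every vehicle library. This was a log2 change of 0.39 ± 0.20 (SE), with adjusted p = 0.495 in limma, against a median of 0.17 over all starts. Bckdk was the only 1 of 8 tested starts without overlap, against 4.28% of all tested starts. The main start region, chr7:127904051-127904271, had 92.0 ± 13.9 and 123 ± 11.2 (log2 change 0.42, adjusted p = 0.557 in limma), from between 32 and 279 read equivalents per library. The Bckdk region in a 3' UTR exon, chr7:127908917-127909095, had 155 ± 13.6 and 142 ± 10.0, and the gene as a whole 282 ± 28.9 and 297 ± 8.25 (log2 change 0.08, adjusted p = 0.856 in limma).

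For the phosphatase Ppm1k, the start sums were 667, 691, 444 and 366 in vehicle and 724, 721, 471 and 526 in knockout. Libraries of both groups fell into a higher pair, replicates 1 and 2, and a lower pair, replicates 3 and 4, and the groups overlapped. Its main start region, chr6:57535486-57535943, had 512 ± 147 and 580 ± 122 (log2 change 0.20, adjusted p = 0.766 in limma). Without vehicle replicate 4 that log2 change was 0.036. The log2 ratio of Bckdk to Ppm1k start signal was -2.37 ± 0.53 in vehicle and -2.18 ± 0.27 in knockout, a difference within the vehicle spread.

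Hibadh had the most accessible start of the members per kb, with nearly equal group means there. Its start region, chr6:52640201-52640663, had 938, 803, 754 and 744 in vehicle and 868, 896, 648 and 830 in knockout. The groups interleave, with means of 810 ± 89.2 and 811 ± 112 (log2 change -0.0040, adjusted p = 0.995 in limma). The median log2 change of all tested start regions was 0.17. The strongest of its intronic regions, chr6:52584385-52584576, had 145 ± 53.8 and 162 ± 29.7 (log2 change 0.25, adjusted p = 0.778 in limma). That difference rested on vehicle replicate 4, which had 65.7 against 160 or more in the other vehicle libraries, and without it the log2 change was -0.09. The gene summed to 1293 ± 188 and 1345 ± 209. A weak intron 3 region, chr6:52577495-52577647, had the largest log2 change of the tested member regions, 1.26 ± 0.69 (SE, adjusted p = 0.573 in limma). Vehicle replicate 4 was listed at 0 there, and without it the log2 change was 0.41.

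**Figure D4:**
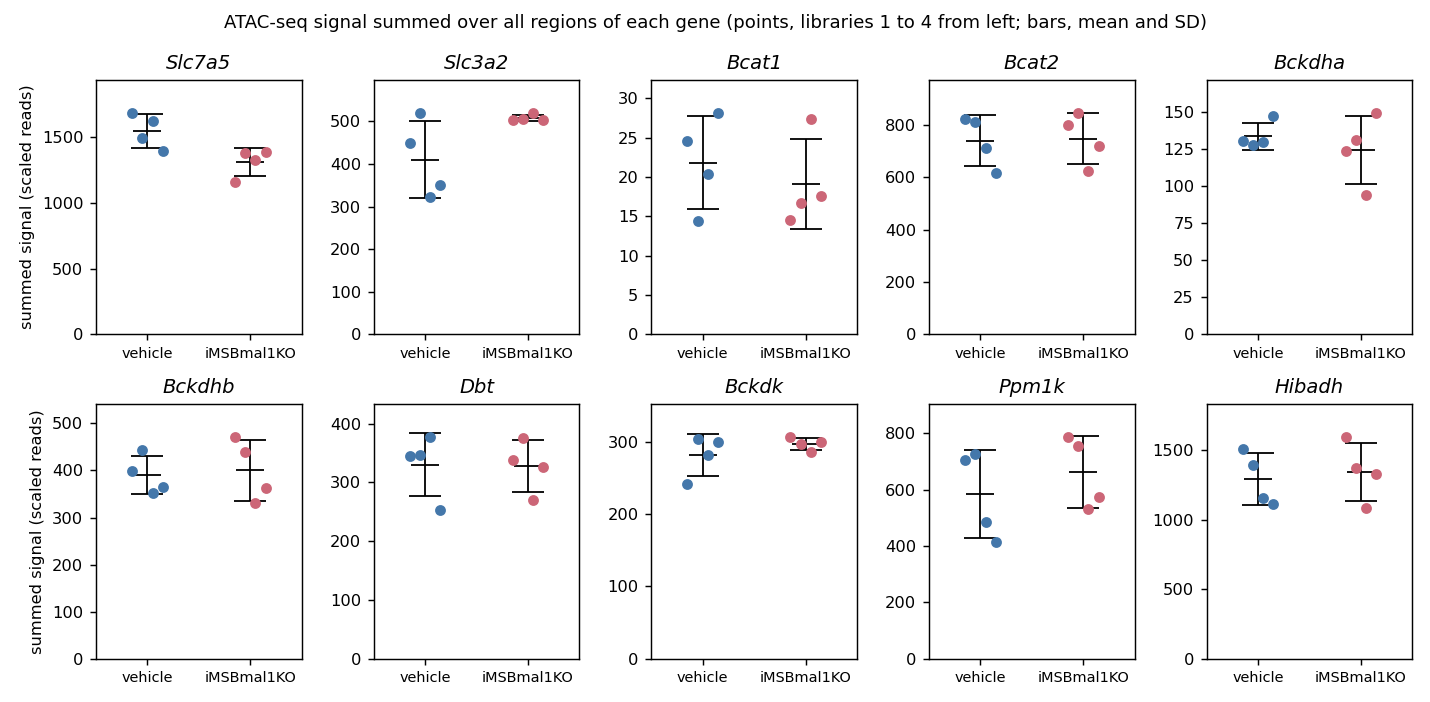
Signal (scaled reads) summed over all regions of each member gene in each library; points are libraries 1 to 4 from left within a group, and bars give the mean and SD (n = 4). Slc7a5 is the gene whose groups are separate, with vehicle between 1395 and 1682 and knockout between 1157 and 1384.

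Over the whole set, none of the 10 gene sums (background 0.13% of 22224 genes), none of the 8 start sums (background 0.0851% of 16451 starts) and none of the 42 tested regions passed an adjusted p under 0.05 in limma. The other 102 member regions were too weak to test, and the tested ones held 91.2% of the members' signal. At an unadjusted p under 0.05 there were 2 of 42 member regions (4.76%), the intron 2 region of Slc7a5 and the intron 9 region of Bckdhb, against 9.22% of all tested regions. No member gene sum or start sum had such a p, against 2106 of all 22224 gene sums and 1686 of all 16451 start sums. Groups without overlap were seen in 4 of 42 regions (9.52%), against 5.48% of all tested regions. These were the intron 1 region of Slc7a5 and the start region of Bckdk, both higher in knockout, and the intron 2 region of Slc7a5 and the intron 9 region of Bckdhb, both lower. With counts this small the shares give no ground to set the members apart from other genes.

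The median log2 change was 0.19 over the 42 member regions and 0.12 over all tested regions, and 24 of the 42 lay above the latter. Without vehicle replicate 4 the member median was below that of all regions, with a difference of -0.031. By section, the 14 tested start regions had a median of 0.23 against 0.17 for all start regions. Of the 14, 11 were above 0, against 69.9% of all tested start regions. The 24 intronic regions had a median of 0.17 against 0.10. Both tested 3' UTR exon regions, which belong to Bckdk, were below 0, and of both transcript-end regions, which belong to Bcat2, 1 was. For gene sums the median was 0.02 against 0.11 over all genes, and 2 of 10 members lay above the latter. Under each of 3 rescalings the gene sums of Bcat2, Bckdhb, Bckdk and Hibadh, all within 1 SE of 0, turned from above to below 0.

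**Figure D5:**
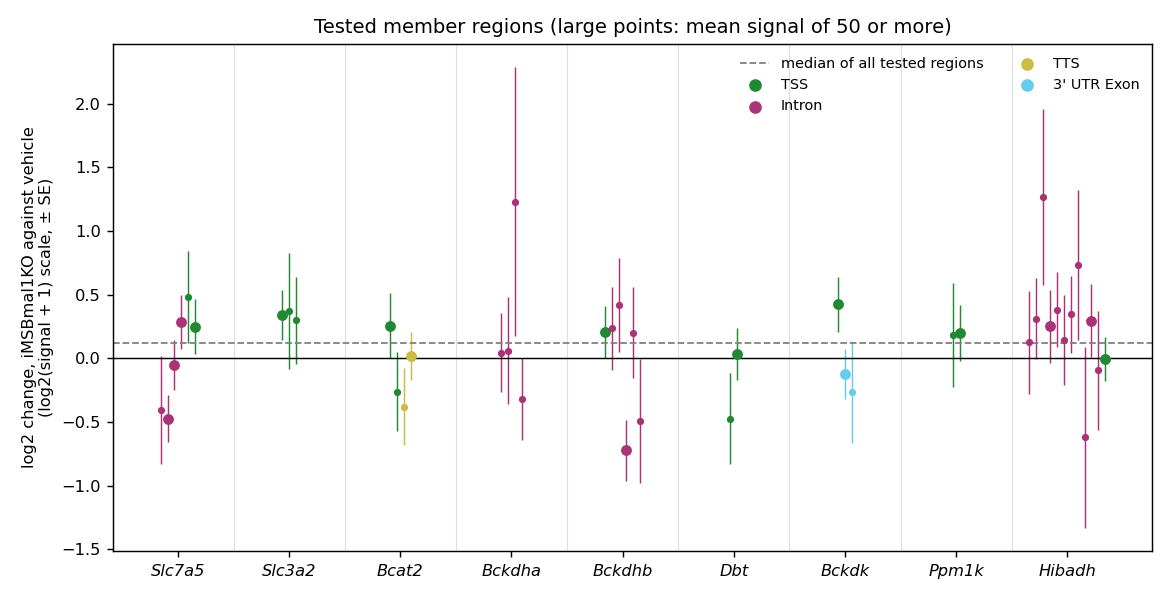
Log2 change of the 42 tested member regions, iMSBmal1KO against vehicle (log2(signal + 1) scale; bars are the SE), by gene in genomic order and coloured by annotated section; the dashed line is the median of all tested regions, 0.12. Large points are regions with a mean signal of 50 or more; the lowest values among them are Bckdhb at -0.72 and Slc7a5 at -0.47.

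The rest of the pathway gave the same picture. Of 45 further genes of amino acid transport, the leucine, valine and isoleucine arms, propionyl-CoA disposal, nitrogen exchange and regulation, 44 could be tested and none passed. Of their 302 tested regions none passed either, and 18 (5.96%) had an unadjusted p under 0.05, against 9.22% of all tested regions. The median log2 change of the gene sums was 0.06 against 0.11 over all genes. Dld, which encodes the E3 subunit shared with other dehydrogenase complexes, had 259 in vehicle and 326 in knockout (log2 change 0.34, adjusted p = 0.517 in limma). Hsd17b10, of the isoleucine arm, had 101 and 130 (log2 change 0.35, adjusted p = 0.531 in limma). Pcca, a subunit of propionyl-CoA carboxylase, had 2013 and 1661 (log2 change -0.27, adjusted p = 0.547 in limma). Of the 44 gene sums, 28 were above 0 and 19 above the median of all genes. The latter count was 5 of 10 for transport, 4 of 7 for the leucine arm, 2 of 5 for the valine arm, 1 of 3 for the isoleucine arm, 2 of 5 for propionyl-CoA disposal, 4 of 6 for nitrogen exchange and 0 of 7 for regulators, and Dld was above it.

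Member genes did not all vary together from library to library. Over the 45 pairs of gene sums, Pearson's r across the 8 libraries had a median of 0.18 and ran from -0.76 for Bcat1 with Bckdhb to 0.90 for Bcat2 with Ppm1k. Over the 36 pairs of start sums the median was 0.46. These values share libraries, groups and depth, and are given as a description.

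Limits of depth and of other cells stand beside these results. Vehicle replicate 4 had 4.31 M read equivalents and 16.5% of its signal on the mitochondrial chromosome. It set the low end of the vehicle group for the gene sums of Slc7a5, Bcat2, Dbt, Ppm1k and Hibadh. The parts of depth and of mitochondrial signal in these low values were not tested. Start signal of Schwann cell genes summed to between 169 and 359 in vehicle and between 322 and 436 in knockout, and that of slow-fibre genes to between 85.3 and 122 and between 69.4 and 95.3. Their part in the member values was not tested.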

How the data were processed

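Nuclei were isolated from gastrocnemius over a sucrose cushion and tagmented with a commercial kit, per the labels' protocols. The submitters' processing notes list Partek, Bowtie2, MACS2 and DESeq2 and the builds mm10 and GRCm39, without saying which step used which. Of the gene names, 82.7% matched RefSeq. For 99.9% of those, the transcript coordinates listed with the regions overlapped the RefSeq gene of GRCm38.p6. The region coordinates were printed as listed and taken as that build. The deposited values are a signal per region that the authors made by dividing reads by a constant per library. Per the file's values, 98.3 to 99.8% of non-zero entries were whole multiples of 1 step per library (tolerance 0.02). Some are tiny fractions, so the planned count models were not run.

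Samples were grouped by the titles in the labels, with no sample left out. Regions were kept with at least 0.762 read equivalents per M in at least 4 libraries and 15 in all. The same filter was applied to gene sums (all regions of a gene name) and start sums (regions annotated TSS). Values were taken as log2(signal + 1) and tested between groups with limma 3.58.1 (trend and robust variance) in R 4.3.3. Adding 1 draws the log2 values of weak regions together, but a single library at 0 can still give a large log2 change. P-values were adjusted by Benjamini-Hochberg over all features of a level, with 0.05 as the threshold. The procedure was also run on simulated libraries. These had the same dispersion for every feature and no shift between libraries, so that run does not cover such traits of these data. The named items are all 10 genes, the strongest start and non-start region of each and the region with the smallest p, plus the 3 pathway genes with the smallest p. Regions assigned to Snhg1, Exosc5 and 0610005C13Rik and the regions of pathway genes given last were singled out after their values were seen. The members and lists were chosen with earlier results of these data known. Marker lists for fast and slow fibres, satellite, fibro-adipogenic, endothelial, smooth muscle, Schwann and adipose cells, leukocytes and other organs were summed over start regions, and no marker start passed the test. Deviations from the group mean were correlated between vehicle and knockout samples. The r was between -0.06 and 0.14 for the same replicate number, and between -0.19 and 0.25 for different numbers.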

Additional observations from a re-analysis of the deposited data

Results flagged for a closer look

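Within groups of 4, the following values stood apart from the other libraries by a Dixon gap test, in 5 of 82 groups examined, where chance gives about 4.1. In the vehicle group, replicate 4 was listed at 0 for the Bckdha region in intron 1 at chr7:25655905-25656053, against 20.3 to 22.9 in the others, and this region had a log2 change of 1.23 ± 1.06 (SE), or 0.11 without that library. The same library had 9.38 at the weaker Dbt start region, chr3:116512811-116512941, against 16.5 to 17.5. At that Dbt region knockout replicate 2 had 14.2, against 8.78 to 9.54 in the other knockout libraries. For the Bckdha gene sum vehicle replicate 4 had 147, against 127 to 130. For the Slc3a2 gene sum knockout replicate 3 had 519, against 503 to 505 in the others, which lay within 2 of each other. Vehicle replicate 4 accounts for 3 of the 5 and is the shallowest library, with 4.31 M read equivalents. The part of depth in these values was not tested.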

How the results depend on the processing

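No member region, gene sum or start sum passed the threshold under any alternative. Of 39 named values, 23 kept their direction throughout, and the smallest adjusted p in limma under any alternative was 0.114, for Pcca. The member regions' median relative to that of all regions was 0.07, and ran from -0.04 to 0.12. The planned count models were not run. Counts over all features moved more. With a threshold of 0.01, 36 regions, 7 genes and 7 starts passed. Median-of-ratios factors gave 279, 48 and 32, TMM factors 277, 48 and 35, and loess 342, 65 and 31. Without a filter 195 regions passed, and limma-voom gave 342 regions and 34 starts. Leaving out 1 library gave 32 (without vehicle replicate 1) to 281 regions (without vehicle replicate 4), 7 (without knockout replicate 2) to 107 genes and 7 (without replicate 3 of either group) to 292 starts (the highest of both without vehicle replicate 2). Same-number correlations did not show that the replicate numbers pair the samples, and not every sample correlated best with its own number. Vehicle replicate 2 had r = 0.25 with knockout replicate 1 and 0.14 with knockout replicate 2. Its r was -0.17 and -0.19 with knockout replicates 3 and 4. Whether libraries of nearby numbers share a batch was not tested. A fit with the replicate block gave 100 regions, 116 genes and 74 starts, against 110, 29 and 14 in the main fit. With that block, 1 member gene sum had an unadjusted p under 0.05 in limma, against 3190 of all 22224 gene sums. The same held for 2 member start sums, against 2888 of all 16451 start sums.

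Values near 0 changed sign with the scaling, in the order median-of-ratios, TMM and loess. The Bcat2 transcript-end region became -0.099, -0.098 and -0.10, and the main Dbt start region -0.082, -0.081 and -0.11. The gene sums became -0.099, -0.098 and -0.12 for Bcat2, -0.084, -0.083 and -0.14 for Bckdhb, -0.030, -0.029 and -0.091 for Bckdk and -0.057, -0.056 and -0.039 for Hibadh. The start sums became -0.095, -0.092 and -0.15 for Bcat2 and -0.16, -0.16 and -0.23 for Dbt, and loess alone gave -0.012 for Slc7a5 and -0.042 for Bckdhb. Limma-voom gave 0.0023 for the Hibadh start region, 0.00073 for its start sum and -0.014 for the Dbt start sum. Summing filtered regions gave 0.12 for Bckdha, -0.0094 for Bckdhb and 0.011 for Dbt. Starts within 1000 bp gave -0.017 for Dbt, and merging abutting regions gave 0.0031 for the Bcat2 region at 45589070. Leaving out 1 library gave -0.070 to 0.11 for the Bcat2 transcript-end region, -0.094 to 0.13 for the Dbt start region, -0.090 to 0.41 for the Hibadh region at 52584385, -0.056 to 0.10 for the Hibadh start region and -0.055 to 0.10 for its start sum. Gene sums then ran from -0.072 to 0.098 (Bcat2), -0.21 to 0.011 (Bckdha), -0.053 to 0.12 (Bckdhb), -0.13 to 0.082 (Dbt) and -0.030 to 0.15 (Hibadh), and start sums from -0.048 to 0.22 (Bcat2) and -0.12 to 0.10 (Dbt). The scalings shift the overall median by construction; for the other settings the cause was not tested. Depth limits the weak regions, some of which had 0 to 3 reads in the shallowest library.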

Other observations

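Among the 302 tested regions of the further pathway genes, none of the 4 with the smallest p passed the adjusted threshold in limma. They were named after their values were seen. Each had groups without overlap, which a choice by smallest p favours, so this is no separate result. Of all tested regions, 5.48% had groups without overlap. A region at a transcript end of Auh, which encodes an enzyme of leucine breakdown, lay at chr13:52886911-52887100. It had 78.9, 81.2, 96.6 and 68.8 in vehicle and 29.7, 56.9, 42.9 and 36.4 in knockout (log2 change -0.98 ± 0.26, SE, adjusted p = 0.234). An intron 2 region of Pcca, chr14:122560990-122561466, had 548 ± 128 in vehicle and 318 ± 40.8 in knockout, and all knockout libraries were lower (log2 change -0.76 ± 0.20, SE, adjusted p = 0.240). A start region of Got1, the cytosolic aspartate aminotransferase, at chr19:43525211-43525452, had 91.7, 83.2, 89.6 and 37.5 in vehicle and 146, 181, 110 and 152 in knockout (log2 change 1.02 ± 0.28, SE, adjusted p = 0.269). A coding exon region of Slc38a9, the lysosomal arginine-sensing transporter, at chr13:112701456-112701625, was weaker. It had 10.3 ± 2.10 in vehicle and 22.8 ± 3.22 in knockout (log2 change 1.08 ± 0.32, SE, adjusted p = 0.346).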
